A study of Homo sapiens with 12 samples.

Results

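Expression of 42 genes of the G2 phase and mitosis was followed through 12 RNA-seq libraries of HGC-27, a human gastric cancer cell line. The genes were taken from a fixed list of mitotic cyclins, kinases, checkpoint, kinetochore and spindle genes whose FPKM averaged 1 or more across the 12 libraries, and all 42 listed genes were found and met that limit, among 11225 such rows of 20345. FPKM counts sequenced fragments for each kilobase of a transcript, relative to the mapped total of that library. Libraries fell into 4 groups of 3. Cells with no stated edit (WT) were sequenced untreated (replicates 1, 2 and 3) and after GLUP (replicates 14, 15 and 16), and cells whose genotype is given as TEAD4KO were sequenced untreated and after GLUP with the same replicate numbers. GLUP is a peptide that was engineered against TEAD4, the Hippo pathway transcription factor to which YAP and TAZ attach. All cells were grown in the same serum-containing medium. How the knockout was made, and whether its cells came from 1 clone, is not given in the sources used here, nor do the labels say that replicates were separate cultures, so that p-values measure only the spread between these libraries.

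Several properties of the libraries touch the results. The TEAD4 transcript was not lower in libraries labelled TEAD4KO, and whether the protein was lost was not tested here. The transcript was listed at 25.8, 24.4 and 25.0 FPKM in untreated WT and at 23.7, 22.9 and 23.8 FPKM in WT with GLUP, against 30.1, 27.7 and 27.2 FPKM in untreated libraries labelled TEAD4KO and 27.8, 29.4 and 26.0 FPKM in those with GLUP, so that every library labelled TEAD4KO lay above every WT library. Its log2 fold change over WT was 0.17 ± 0.06 (SE, limma) untreated, with a Benjamini-Hochberg adjusted p of 0.135. With GLUP in both genotypes it was 0.23 ± 0.06 (limma adjusted p = 0.0479). That adjusted p rose above 0.05, so that the call was lost, in 8 of 12 fits that left out 1 library. The call was also lost in 7 of 11 other alternatives, so that the difference was not firm. On the first principal component of all rows tested (39.7% of the variance), WT libraries lay between -16.2 and -3.71 and 4 of the libraries labelled TEAD4KO at 9.91 or above, while untreated replicate 1 lay at -0.96 and GLUP replicate 16 at -5.26. Results that turn on those libraries are given with and without them. Of the markers of a gastric epithelial line, EPCAM (0.028 to 0.169 FPKM) and KRT18 (0.056 to 0.290 FPKM) were near 0, CDH1 was at 2.04 to 3.68 FPKM and KRT8 at 3.78 to 9.13 FPKM, while the mesenchymal marker VIM was at 1238 to 1704 FPKM and the other, FN1, at 3.85 to 9.15 FPKM. The fibroblast marker COL1A1 was at 155 to 304 FPKM and COL1A2 at 4.93 to 9.80 FPKM, and the leukocyte marker PTPRC was at most 0.276 FPKM. Because the depth of sequencing is unknown, no counting error can be attached to a level.

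Entry into mitosis is driven by CDK1 bound to the A- and B-type cyclins, once the CDC25 phosphatases have removed inhibitory phosphates from CDK1. Polo-like and Aurora kinases then build the spindle, the checkpoint proteins hold back the anaphase-promoting complex until every kinetochore is attached, and CDC20 and UBE2C allow that complex to mark cyclin B and securin for destruction. These genes are transcribed late in the cell cycle, and their RNA is known as a readout of the share of cycling cells. In bulk RNA, fewer cells in G2 and mitosis cannot be told apart from less RNA per cell.

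The promoters of many of the 42 genes carry a pair of short elements, the CCAAT box bound by NF-Y and the cell-cycle genes homology region (CHR) bound by the DREAM and MuvB complexes, which hold the genes silent in resting cells and activate them before mitosis. The 6 examples given here were chosen because both elements fall within the same short stretch in each of them. They are the 130 bases directly before the annotated start, from RefSeq on GRCh38.p14, 5′ to 3′ on the strand of the gene. Capitals mark CCAAT (or ATTGG, the same letters on the other strand) and the CHR letters TTTGAA or CTTGAA (or TTCAAA and TTCAAG).
CCNA2: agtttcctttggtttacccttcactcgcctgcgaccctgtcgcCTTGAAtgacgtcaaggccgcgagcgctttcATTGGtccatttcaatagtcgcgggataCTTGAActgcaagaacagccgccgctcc
CCNB2: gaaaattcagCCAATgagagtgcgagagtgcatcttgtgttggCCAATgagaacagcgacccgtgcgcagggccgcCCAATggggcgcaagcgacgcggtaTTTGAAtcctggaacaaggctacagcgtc
CDC20: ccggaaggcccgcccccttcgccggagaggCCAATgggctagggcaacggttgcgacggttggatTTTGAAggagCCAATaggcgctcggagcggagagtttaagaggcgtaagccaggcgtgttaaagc
PLK1: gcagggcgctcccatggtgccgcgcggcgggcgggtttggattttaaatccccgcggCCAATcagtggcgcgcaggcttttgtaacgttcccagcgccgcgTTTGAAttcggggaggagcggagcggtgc
MKI67: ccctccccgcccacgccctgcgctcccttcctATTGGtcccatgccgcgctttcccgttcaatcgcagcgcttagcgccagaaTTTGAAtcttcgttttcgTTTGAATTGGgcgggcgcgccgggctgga
TOP2A: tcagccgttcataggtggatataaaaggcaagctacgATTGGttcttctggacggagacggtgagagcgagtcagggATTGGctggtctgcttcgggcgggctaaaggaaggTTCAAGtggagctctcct
These windows are chr4:121823884-121824013 (minus strand) for CCNA2, chr15:59105016-59105145 (plus) for CCNB2, chr1:43358851-43358980 (plus) for CDC20, chr16:23678759-23678888 (plus) for PLK1, chr10:128126424-128126553 (minus) for MKI67 and chr17:40417897-40418026 (minus) for TOP2A. In CCNB2, PLK1 and MKI67 a TTTGAA starts 29 bases before the start, and in CCNA2 a CTTGAA starts 28 bases before it. In MKI67 that TTTGAA shares its last base with an ATTGG, and CCNB2 holds 3 CCAAT boxes. Over the full 300-base windows (250 before to 50 after the start), 35 of the 42 genes were matched in 46 windows. AURKA, BIRC5, BUB3, FOXM1, TPX2, TTK and UBE2C were not matched. CCAAT on either strand was in 71.7% of the members' windows and in 34.6% of all 35116 windows of that length. The CHR letters were in 63.0% against 23.9%, and both were in 52.2% against 9.23%. The core letters of the TEAD site, CATTCC on either strand, were in 13.04% of the members' windows, those of CDC25B, CENPE, CENPF, HMMR, KIF2C and NUF2, and in 14.03% of all windows. A match describes letters in a window and not binding.

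By mean FPKM over the 12 libraries, CDC20, the activator of the anaphase-promoting complex and target of the spindle checkpoint, was highest at 172.8 FPKM, above 97.7% of the rows tested. It was followed by cyclin B1 (CCNB1, 143.7 FPKM), topoisomerase II alpha (TOP2A, 127.5 FPKM), the ubiquitin-conjugating enzyme UBE2C (117.5 FPKM) and the spindle assembly factor TPX2 (96.8 FPKM). Securin (PTTG1, 90.5 FPKM), the polo-like kinase PLK1 (83.4 FPKM), CDK1 (77.2 FPKM) and the transcription factor MYBL2 (76.2 FPKM) came next. The libraries of CCNB1 (123 to 167 FPKM) overlapped with those of CDC20 (149 to 188 FPKM) and of TOP2A (115 to 150 FPKM), but within each of the 12 libraries CDC20 was above CCNB1, and CCNB1 above TOP2A. TOP2A was above UBE2C in 9 of the 12. Cyclin A2 (CCNA2) was at 40.1 FPKM and MKI67, which encodes the proliferation antigen Ki-67, at 29.2 FPKM. The kinetochore motor CENPE (12.6 FPKM), the centriole duplication kinase PLK4 (9.31 FPKM) and the CDK1 phosphatase CDC25C (5.72 FPKM) were the lowest, the last at the 30.7th percentile of the rows tested.

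The levels were tight. The coefficient of variation within a group had a median of 5.78% over 168 values (42 genes in 4 groups, n = 3 each), with a range of 0.234% to 23.3%. The highest of the 12 libraries exceeded the lowest by a median of 1.29-fold per gene. The smallest such ratio was 1.14-fold and the largest was 1.61-fold, for INCENP, the scaffold of the chromosomal passenger complex. Its untreated WT libraries alone stood at 31.8, 22.1 and 35.6 FPKM. Exons of 16 members share bases with another gene, 14 of them on the opposite strand (CCNA2 with EXOSC9, PLK1 with ERN2 and FOXM1 with ITFG2 among them), and whether counting used strand is not given in the sources used here. Fragments of PTTG1 and KIF4A may also be split with near-identical copies, so that the values of these genes are uncertain.

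**Figure D1:**
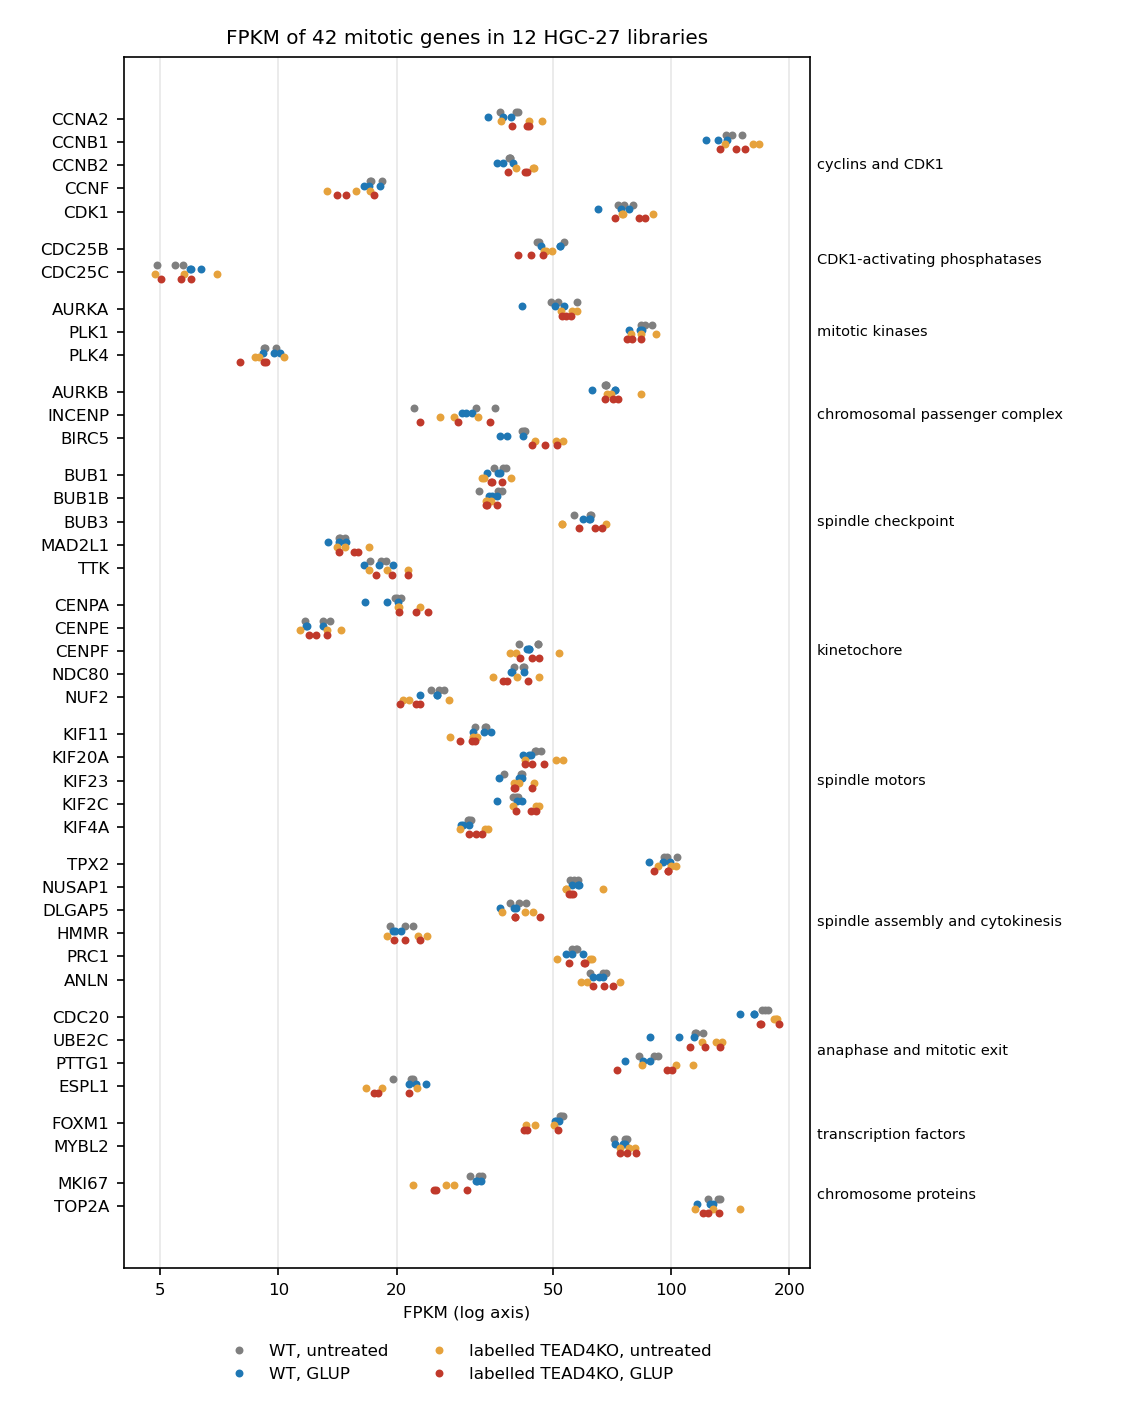
FPKM (log axis) of each of the 42 genes in each of the 12 libraries, grouped by role on the right, with 1 point per library and 1 colour per group. The points of most genes overlap between all groups, the lowest gene is CDC25C (mean 5.72 FPKM) and the highest is CDC20 (mean 172.8 FPKM).

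GLUP changed none of the 42 genes in WT cells past the test. CCNA2 stood at 40.3, 36.7 and 40.8 FPKM without GLUP and at 37.4, 39.1 and 34.2 FPKM with it. CDK1 stood at 75.8, 73.1 and 79.8 FPKM without GLUP and at 74.4, 78.0 and 65.3 FPKM with it. MKI67 stood at 32.4, 30.7 and 33.0 FPKM against 32.7, 31.9 and 32.1 FPKM. In each of these genes the groups overlapped. The log2 fold change of CCNA2, on the log2(FPKM + 1) scale used throughout, was -0.09 ± 0.09 (SE, limma) and that of MKI67 was 0.0087 ± 0.0898, the latter turning to -0.0050 under median-ratio scaling and to -0.029 with the GC and length correction. With limma, 0 of 42 genes had a Benjamini-Hochberg adjusted p under 0.05 and 2, CDC20 and UBE2C, had an unadjusted p under 0.05, beside a background of 0.00891% called (1 row of 11225) and 3.43% of all rows at an unadjusted p under 0.05. The smallest adjusted p of the members was 0.999.

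Both of those genes act in anaphase. CDC20 was at 176, 173 and 170 FPKM without GLUP and at 163, 163 and 149 FPKM with it, with no overlap and a log2 fold change of -0.13 ± 0.06. UBE2C, which hands ubiquitin to the anaphase-promoting complex, was at 121, 115 and 115 FPKM without GLUP and at 104, 114 and 88.4 FPKM with it, and its log2 fold change of -0.20 ± 0.09 was the lowest of the 42 genes, running from -0.28 to -0.10 as each library was left out. The highest was that of CDC25C (0.16 ± 0.11), which stood at 5.45, 4.90 and 5.72 FPKM without GLUP and at 5.94, 6.34 and 5.98 FPKM with it. The 2 groups did not overlap for 5 genes (CDC25C higher and KIF20A, CDC20, UBE2C and FOXM1 lower), or 11.9% of the members against 17.3% of all rows tested. A positive log2 fold change was found for 10 members and a negative one for 32, with a median of -0.037 against 0.0088 over all rows. All 5 genes of cyclins and CDK1 and all 5 kinetochore genes were on the negative side, none of them past the test, with a median of -0.073 for the former and -0.056 for the latter. Both transcription factors were also negative, both CDC25 phosphatases were positive and every other role was mixed. WT with GLUP replicate 16 was the lowest of its group for 36 members. The median of all 42 genes ran from -0.064 to -0.012 as each library was left out.

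TPX2, KIF11, CENPF, TOP2A, CCNB1 and BUB1B passed an adjusted p under 0.05 in none of the comparisons. TPX2, which brings AURKA to spindle microtubules, averaged 98.9 ± 3.80 FPKM (SD, n = 3) in untreated WT, 94.1 ± 5.59 FPKM in WT with GLUP, 98.4 ± 5.47 FPKM in untreated libraries labelled TEAD4KO and 95.7 ± 4.37 FPKM in those with GLUP. In the same order, the spindle motor KIF11 averaged 33.0 ± 1.14, 33.1 ± 1.78, 30.2 ± 2.54 and 30.6 ± 1.46 FPKM. CENPF, a large protein of the outer kinetochore, averaged 44.2 ± 2.75, 43.3 ± 0.299, 43.6 ± 7.18 and 43.9 ± 2.43 FPKM. TOP2A, which untangles sister chromatids, averaged 129.7 ± 4.75, 123 ± 6.08, 131 ± 17.4 and 126 ± 6.14 FPKM. Within the untreated libraries labelled TEAD4KO, replicate 3 was the highest for each of these 4 genes. CCNB1, the regulatory partner of CDK1 in mitosis, averaged 144 ± 6.99, 131 ± 7.90, 155 ± 16.1 and 144 ± 10.5 FPKM in the same order of groups, and the checkpoint kinase-like protein BUB1B averaged 35.3 ± 2.51, 35.1 ± 0.786, 34.1 ± 0.494 and 34.6 ± 1.20 FPKM.

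The intervals bound the difference with GLUP in WT only as far as the spread between these libraries goes. They are separate intervals of genes that shift together within a library, on a scale that understates changes of low genes. Gene by gene, the 95% interval of the fold change on this scale lay within 1.25-fold in either direction for 38 of 42 genes and within 1.5-fold for all 42. The bound farthest from 1 was 1.31-fold, on the upper side of CDC25C.

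In libraries labelled TEAD4KO, GLUP again moved none of the 42 genes past the test. CCNA2 stood at 36.9, 43.4 and 46.8 FPKM without GLUP and at 42.9, 43.5 and 39.4 FPKM with it. Its log2 fold change was -0.0086 ± 0.0853, a sign that turned under median-ratio scaling (0.0042) and quantile normalization (0.016). With limma, 0 of 42 genes had an adjusted p under 0.05 and 0 an unadjusted p under 0.05, beside 0.0445% called and 6.38% at an unadjusted p under 0.05 among all rows, and the smallest adjusted p of the members was 0.835. The lowest value was that of PTTG1 (-0.15 ± 0.12) and the highest that of BUB3, a checkpoint protein (0.13 ± 0.09). Leaving out 1 library at a time moved PTTG1 from -0.27 to -0.0072 and BUB3 from 0.063 to 0.25. BUB3 stood at 52.7, 68.4 and 52.8 FPKM without GLUP and at 63.9, 66.8 and 58.2 FPKM with it, so that the groups overlapped. CDC25B, which activates CDK1 at the centrosome, was the 1 gene whose groups did not, at 49.6, 47.3 and 48.1 FPKM without GLUP against 44.02, 47.2 and 40.8 FPKM with it. That is 2.38% of the members, against 6.83% of all rows. A positive log2 fold change was found for 12 members and a negative one for 30, and the median of -0.016 (all rows -0.017) turned to 0.0019 under quantile normalization and to 0.030 without untreated replicate 3 labelled TEAD4KO. The 95% intervals lay within 1.25-fold for 39 genes and within 1.5-fold for all 42, the farthest bound being 1.34-fold, for PTTG1.

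Averaged over both genotypes in the same fit, the GLUP effect had a median of -0.023 and ran from -0.13 ± 0.06 (UBE2C) to 0.07 ± 0.06 (BUB3). With limma, 0 genes were called and 1 (CDC20) had an unadjusted p under 0.05, beside 0.258% of all rows called (29 rows) and 7.14% at an unadjusted p under 0.05. The intervals of all 42 genes lay within 1.25-fold. The difference between the GLUP effects in the 2 genotypes, tested as an interaction, had 0 members called and 0 with an unadjusted p under 0.05, beside 0.00891% and 2.53% of all rows. It ran from -0.21 ± 0.15 (CDC25C) to 0.18 ± 0.12 (CENPA, the histone H3 variant of centromeres), and its intervals were wider, within 1.25-fold for 26 genes and within 1.5-fold for 42. None of these tests shows that GLUP acted alike in both genotypes.

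**Figure D2:**
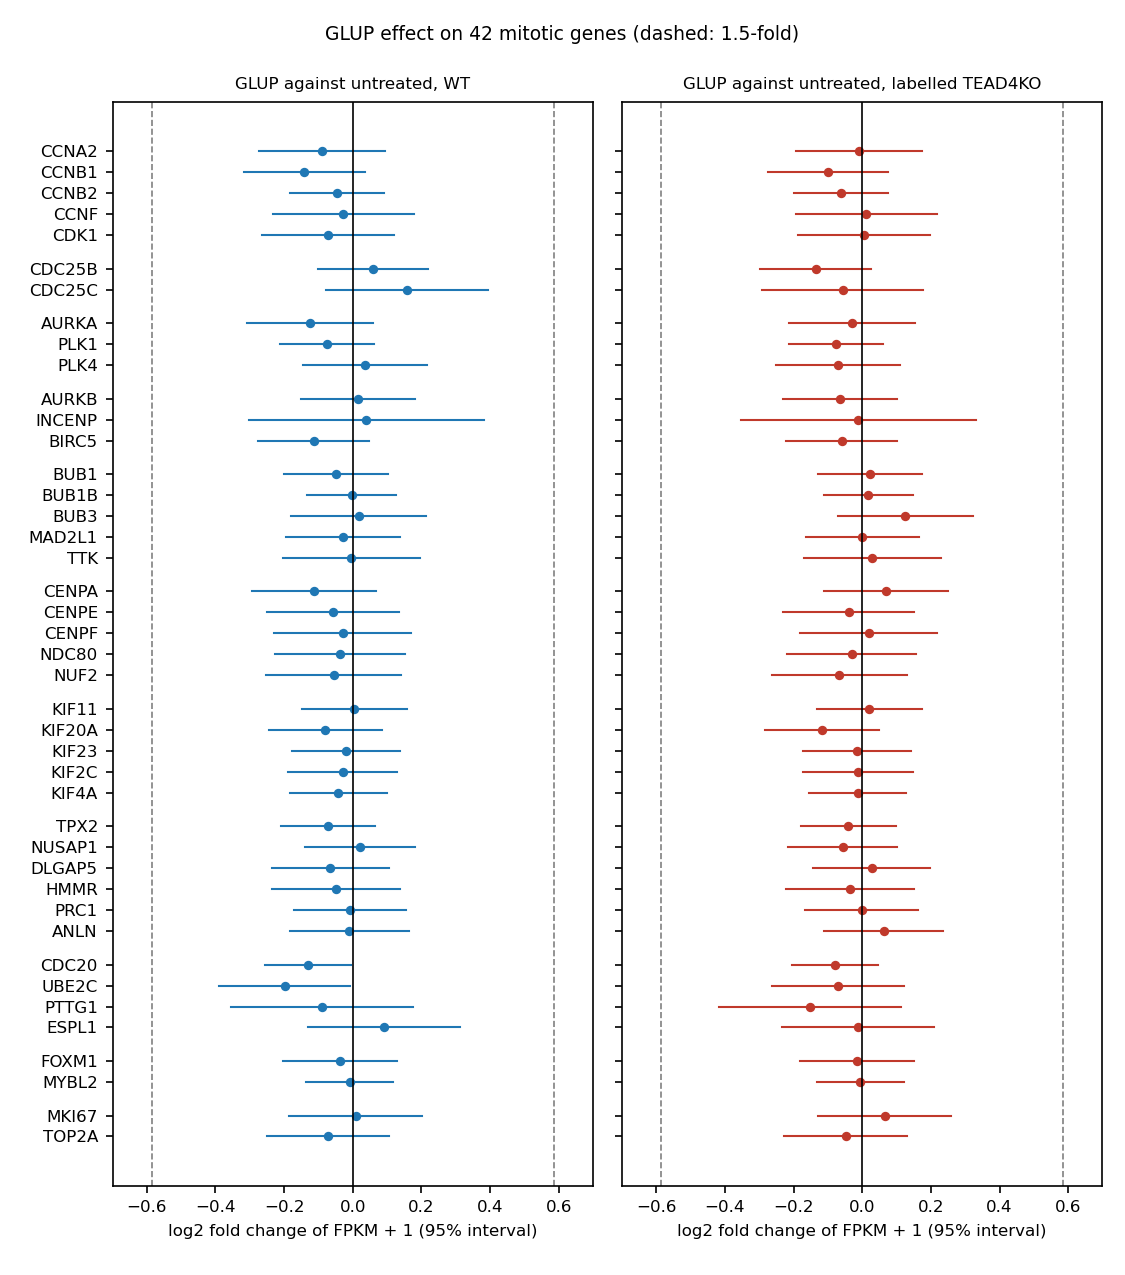
Log2 fold change of FPKM + 1 with GLUP against untreated for each of the 42 genes in WT (left) and in libraries labelled TEAD4KO (right), with bars for the 95% interval of limma and dashed lines at 1.5-fold. Every bar stays inside the dashed lines, and the lowest point in WT is UBE2C (-0.20).

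Part of the spread was shared by the genes within a library. The deviation of log2(FPKM + 1) from the mean of the 12 libraries, taken as the median over the 42 genes, ran from -0.090 in WT with GLUP replicate 16 to 0.137 in untreated replicate 3 labelled TEAD4KO, with an SD of 0.0667 between libraries of a group. The group means of this shift were 0.0066 in untreated WT, -0.030 in WT with GLUP, 0.026 in untreated TEAD4KO and 0.012 in TEAD4KO with GLUP, all closer together than that SD. WT with GLUP replicate 16 was the lowest of its 3 libraries for 36 of 42 genes, against 33.0% of all rows, and WT with GLUP replicate 15 was the highest for 28. Untreated WT replicate 2 was the lowest for 29 genes (42.2% of all rows), and untreated replicate 1 labelled TEAD4KO for 27 (28.9%). The 68 further mitosis genes outside the list shifted alike, with medians of -0.070 in WT with GLUP replicate 16 and 0.096 in untreated replicate 3 labelled TEAD4KO, whereas 37 DNA replication genes had medians of 0.00033 and 0.052 in those libraries. Over all rows the medians of those 2 libraries were 0.013 and 0.030. The order of libraries depended on the scaling. With median-ratio scaling the members' medians in those 2 were -0.103 and 0.106, and untreated replicate 1 labelled TEAD4KO was lowest (-0.117). With quantile normalization they were -0.0316 and 0.0778. There, that same replicate 1 was lowest (-0.0986) and untreated WT replicate 3 highest (0.0785). What moved these libraries was not tested.

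**Figure D3:**
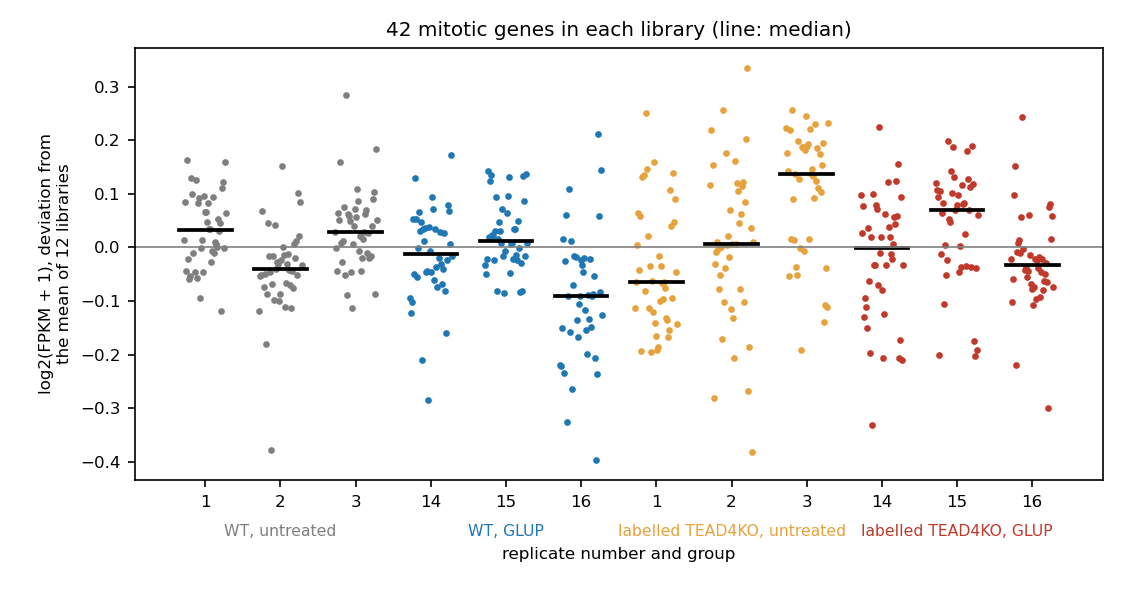
Deviation of log2(FPKM + 1) from the mean of the 12 libraries for each of the 42 genes (points) in each library, with the median as a black line and libraries labelled by replicate number and group. The medians run from -0.090 (WT with GLUP replicate 16) to 0.137 (untreated replicate 3 labelled TEAD4KO), and the 3 medians of untreated libraries labelled TEAD4KO span 0.202.

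Between genotypes, BIRC5 had the highest value of the set and MKI67 the lowest in untreated cells, and neither passed the test. In untreated cells, BIRC5, which encodes survivin of the chromosomal passenger complex, was at 42.6, 42.2 and 41.6 FPKM in WT and at 45.0, 53.1 and 51.0 FPKM in libraries labelled TEAD4KO. MKI67 was at 32.4, 30.7 and 33.0 FPKM in WT and at 27.99, 22.0 and 26.7 FPKM in libraries labelled TEAD4KO. Neither gene overlapped between groups. The log2 fold change was 0.23 ± 0.07 for BIRC5 (limma adjusted p = 0.0896) and -0.32 ± 0.09 for MKI67 (adjusted p = 0.0535), against a threshold of 0.05. Without untreated replicate 1 labelled TEAD4KO both passed it, at 0.30 (adjusted p = 0.0250) and -0.39 (adjusted p = 0.0247), and MKI67 also passed it without GLUP replicate 16 labelled TEAD4KO (adjusted p = 0.0235). MKI67 passed it too with a mean of at least 5 FPKM (adjusted p = 0.0417), median-ratio scaling (0.0308), quantile normalization (0.0275) and array weights (0.0265).

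With limma, 0 of 42 genes were called in untreated cells and 4 had an unadjusted p under 0.05 (CCNB2, BIRC5, FOXM1 and MKI67), while 5.42% of all rows were called, 4.92% higher and 0.499% lower in libraries labelled TEAD4KO, and 21.7% had an unadjusted p under 0.05. The split of 552 rows higher and 56 lower became 320 and 133 with median-ratio scaling and 357 and 246 with quantile normalization, and the number called ran from 119 (without untreated WT replicate 3) to 1186 (without untreated replicate 1 labelled TEAD4KO). Groups did not overlap for 6 members (14.3%), against 25.7% of all rows. CCNB2, AURKB, BIRC5 and CDC20 were on the higher side, although CDC20 turned to -0.050 under quantile normalization and -0.013 with the GC and length correction, and AURKB to -0.011 with that correction. FOXM1, the transcription factor that activates many of the other members, was at 53.0, 52.2 and 52.3 FPKM in WT and at 50.2, 42.6 and 45.1 FPKM in libraries labelled TEAD4KO (log2 fold change -0.19 ± 0.08). MYBL2, the other transcription factor of the set, was at 76.1, 77.2 and 71.6 FPKM against 81.1, 78.1 and 74.1 FPKM. The kinases PLK1 and AURKA overlapped between groups. PLK1 was at 89.2, 85.9 and 83.9 FPKM in WT and at 91.5, 78.9 and 84.0 FPKM in libraries labelled TEAD4KO, and AURKA at 57.6, 49.4 and 51.6 FPKM against 57.7, 52.5 and 56.1 FPKM. The checkpoint kinase BUB1 was at 37.9, 35.4 and 37.4 FPKM against 33.0, 33.3 and 39.2 FPKM, and TTK at 18.8, 18.2 and 17.1 FPKM against 17.1, 18.9 and 21.3 FPKM. The median of the 42 genes was 0.037 (all rows 0.023), with 26 positive and 16 negative values, and turned to -0.049 under quantile normalization and to -0.013 without untreated replicate 3 labelled TEAD4KO.

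With GLUP in both genotypes, BIRC5 was the 1 gene called. It stood at 38.2, 41.8 and 36.7 FPKM in WT and at 47.6, 51.0 and 44.2 FPKM in libraries labelled TEAD4KO, higher in each of the 3 than in every WT library, and rose by 0.28 ± 0.07 (limma adjusted p = 0.0408). That makes 1 of 42 members, or 1 higher and 0 lower, beside 5.84% of all rows called (4.91% higher and 0.935% lower). The 551 rows higher and 105 lower became 438 and 162 with median-ratio scaling and 510 and 299 with quantile normalization. The call was lost with no filter (adjusted p = 0.0751), median-ratio scaling (0.0747), quantile normalization (0.0624), no intensity trend (0.0666) and a fit of only these 2 groups (0.0702), and in 7 of 12 fits that left out a library, namely each WT library other than GLUP replicate 15, and GLUP replicates 14 and 15 labelled TEAD4KO. The adjusted p over all alternatives ran from 0.00791 to 0.185, and the log2 fold change from 0.21 to 0.34. The main fit paired no libraries. With a replicate block, which paired libraries of the same number between genotypes, BIRC5 (limma adjusted p = 0.0237) and UBE2C were called, both higher. The block called 9.48% of all rows. Without GLUP replicate 16 labelled TEAD4KO, 6 genes were called, BIRC5, CENPA and UBE2C higher and ESPL1, FOXM1 and MKI67 lower, while 17.4% of all rows were called in that fit.

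In that comparison 8 members had an unadjusted p under 0.05, beside 23.9% of all rows, and those other than BIRC5 were CDC25B, CENPA, CDC20, UBE2C, ESPL1, FOXM1 and MKI67. Groups did not overlap for 7 members (16.7%), against 29.5% of all rows. CCNA2 was one of them, at 37.4, 39.1 and 34.2 FPKM in WT and 42.9, 43.5 and 39.4 FPKM in libraries labelled TEAD4KO (log2 fold change 0.18 ± 0.09, adjusted p = 0.215). CENPA was another, at 16.6, 20.2 and 18.9 FPKM against 24.0, 22.5 and 20.2 FPKM (0.25 ± 0.08, adjusted p = 0.0967). On the lower side were ESPL1, which encodes separase, the protease that cuts cohesin at anaphase (-0.24 ± 0.10, adjusted p = 0.174), and MKI67 (-0.27 ± 0.09, adjusted p = 0.0980). MKI67 was at 32.7, 31.9 and 32.1 FPKM in WT and at 24.9, 25.2 and 30.2 FPKM in libraries labelled TEAD4KO, with replicate 16 nearest to WT. The median over the 42 genes was 0.044 (all rows -0.0039), with 27 positive and 15 negative values, and turned to -0.045 under quantile normalization. Among roles, 4 of 5 genes of cyclins and CDK1 were on the higher side (median 0.14) and CCNF, a cyclin that acts in ubiquitin ligases, on the lower, none of them past the test. Both genotype comparisons and both GLUP comparisons share groups of libraries, so that the same values enter more than 1 of them. No member passed an adjusted p under 0.05 together with a fold change over 2 in any comparison.

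Transcript length moved with the genotype difference. Across the 11077 rows with a length, Spearman's rho between the log2 fold change and the transcript length was -0.511 in untreated cells and -0.474 with GLUP. Across the 42 members it was -0.584 and -0.465. These are descriptions across genes, which share their 12 libraries and are not independent. MKI67 has the longest transcript of the set (12716 bases in GENCODE 44 on GRCh37, chr10:129894923-129924687, minus strand), and UBE2C the shortest (914 bases, chr20:44441215-44445596, plus strand). Once the dependence on length and GC content had been removed from every library, the rho of the members was 0.160 and 0.141. MKI67 then stood at -0.15 ± 0.05 (limma adjusted p = 0.140) untreated and at -0.08 ± 0.05 (adjusted p = 0.396) with GLUP. BIRC5 (2711 bases, chr17:76210267-76221717, plus strand) held its size, at 0.23 ± 0.07 (adjusted p = 0.102) and 0.30 ± 0.07 (adjusted p = 0.0399). The lowest member became NUF2, a subunit of the kinetochore complex that binds microtubules (-0.21 ± 0.08 untreated and -0.25 ± 0.08 with GLUP), which passed no threshold (adjusted p = 0.186 and 0.102). GLUP had the opposite trend, with a rho over the members of 0.503 in WT and 0.513 in libraries labelled TEAD4KO. Over all rows it was 0.237 and 0.191. After correction the rho over the members was 0.246 and 0.301, and 0 members were called before or after. What sets these trends was not tested.

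**Figure D4:**
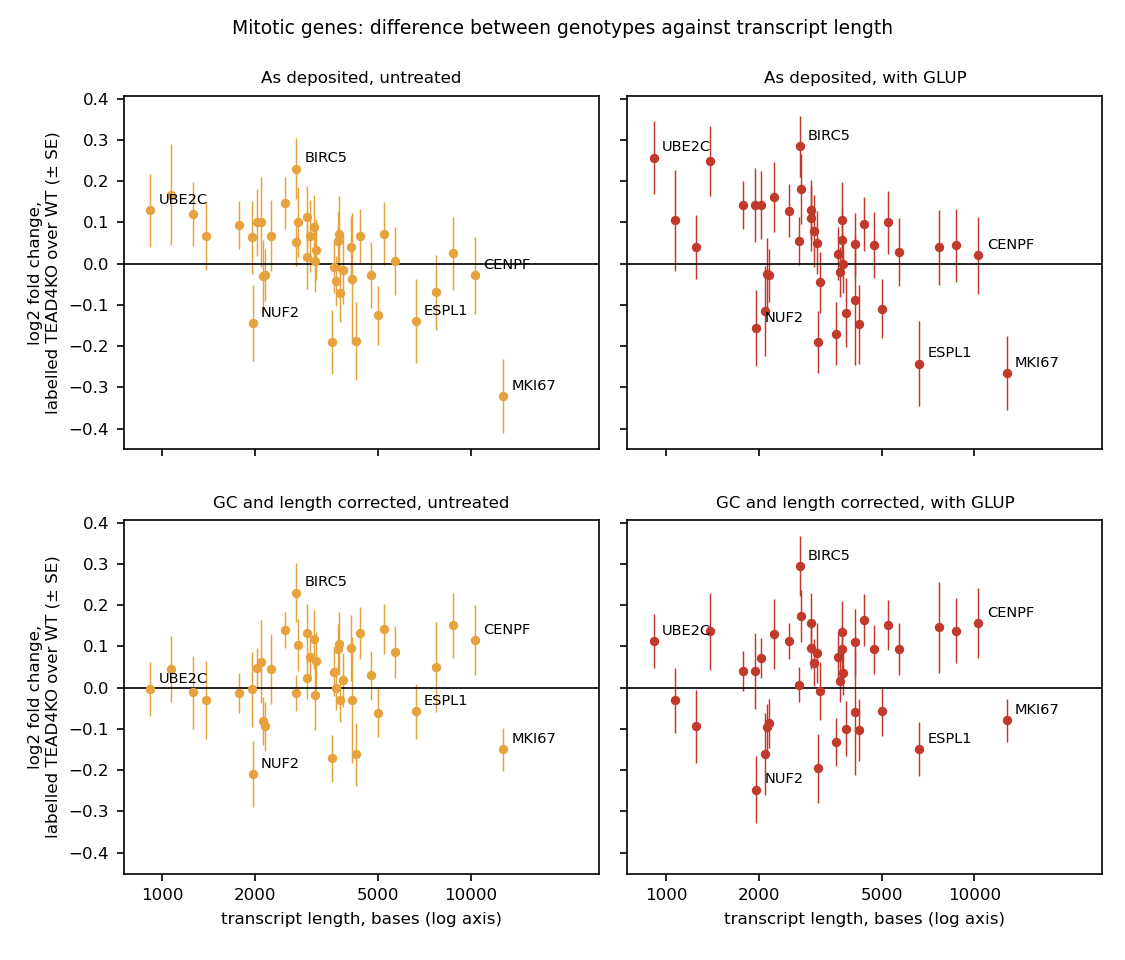
Log2 fold change (± SE) of libraries labelled TEAD4KO over WT against transcript length (log axis) for each of the 42 genes, untreated (left) and with GLUP (right), as deposited (top) and after correction for length and GC content (bottom). The downward slope of the top panels (rho -0.584 and -0.465) is absent from the bottom panels (rho 0.160 and 0.141), where MKI67 moves towards 0 and BIRC5 stays highest.

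The rest of the cell cycle was followed through 6 further lists. With limma, GLUP changed 0 of their 162 genes tested in WT and 0 in libraries labelled TEAD4KO, with 1 and 10 of them at an unadjusted p under 0.05. Of all rows, 0.00891% and 0.0445% were called, and 3.43% and 6.38% had an unadjusted p under 0.05. The rises and falls below are those of libraries labelled TEAD4KO over WT, either both untreated or both with GLUP. Untreated, 6 of the 162 genes were higher and 1 lower, beside 4.92% and 0.499% of all rows. With GLUP, 11 were higher and 2 lower, beside 4.91% and 0.935% of all rows. Of 68 other mitosis genes, 1 rose in untreated cells, MAD1L1, which anchors the checkpoint protein MAD2 at kinetochores (0.46 ± 0.08, limma adjusted p = 0.00608). It was at 9.51, 9.81 and 9.58 FPKM in WT and at 14.2, 12.96 and 13.8 FPKM in libraries labelled TEAD4KO. With GLUP in both genotypes, 4 were higher in libraries labelled TEAD4KO. They were MAD1L1 (0.30), the condensin subunit NCAPH2 (0.22), the kinetochore protein ZW10 (0.33) and OIP5 (0.48), whose exons share bases with NUSAP1 on the other strand. In either comparison 0 were lower. Of 17 genes of the anaphase-promoting complex and its partners, UBE2S, which extends ubiquitin chains on its substrates, rose in both. It stood at 134, 134 and 113 FPKM in untreated WT and at 185, 193 and 178 FPKM in untreated libraries labelled TEAD4KO (0.55 ± 0.10, adjusted p = 0.00652). Of 11 genes of the G2/M switch, ENSA, an inhibitor of the phosphatase that opposes CDK1, rose in both (0.29 and 0.25).

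Among 23 tested of 24 DREAM subunits and cell cycle inhibitors, the CDK4 and CDK6 inhibitors CDKN2A and CDKN2C were higher in libraries labelled TEAD4KO. This held in both comparisons with WT, and 0 were lower. CDKN2A was at 112, 104 and 97.1 FPKM in untreated WT and at 159, 172 and 169 FPKM in untreated libraries labelled TEAD4KO (0.67 ± 0.10). With GLUP in both genotypes its difference from WT was 0.64 ± 0.10. CDKN2C was higher by 0.36 untreated and by 0.45 with GLUP in both genotypes. Of 37 DNA replication genes tested of 38, CDT1, which licenses origins, was higher in untreated libraries labelled TEAD4KO than in untreated WT (0.31). TYMS (0.26), TK1 (0.39) and the clamp loader subunit RFC2 (0.21) were higher in libraries labelled TEAD4KO when both genotypes had GLUP. Of 6 G1 cyclins and kinases, cyclin D2 (CCND2) was lower in libraries labelled TEAD4KO, by 0.31 untreated and by 0.30 with GLUP in both genotypes. Cyclin D1 (CCND1) was lower in them by 0.32 with GLUP in both genotypes. CCND2 was at 100.2, 99.3 and 103 FPKM in untreated WT and at 89.2, 74.1 and 80.9 FPKM in untreated libraries labelled TEAD4KO. With the length and GC correction, UBE2S, ENSA, CDKN2A, CDKN2C and CCND2 kept their calls in both comparisons. MAD1L1 kept it in untreated cells only, TYMS and ZW10 kept theirs with GLUP, and CDT1, NCAPH2, OIP5, TK1, RFC2 and CCND1 lost theirs. The count of other mitosis genes that rose became 3 in untreated cells (MAD1L1, ZW10 and NSL1) and 1 with GLUP (ZW10). Quantile normalization ended the calls of ENSA in both comparisons, and of NCAPH2 and RFC2 with GLUP. Median-ratio scaling ended those of CDKN2C and CDT1 in untreated cells and of ENSA, NCAPH2, ZW10 and RFC2 with GLUP. UBE2S and CDKN2A kept theirs in both comparisons under every alternative, as did MAD1L1 in untreated cells and CDKN2C with GLUP.

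Several of these calls were lost when 1 library was left out. UBE2S and CDKN2A in both comparisons, MAD1L1 in untreated cells, and OIP5, CDKN2C and TK1 with GLUP kept their calls in all 12 fits that left out a library. In untreated cells, ENSA lost its call in 3 of 12 (without any 1 untreated WT library), CDKN2C in 3 (without untreated WT replicate 1 or 2, or untreated replicate 2 labelled TEAD4KO), and CDT1 and CCND2 in 4 each (without any 1 untreated WT library or untreated replicate 2 labelled TEAD4KO), with adjusted p up to 0.143. With GLUP, ENSA, NCAPH2, ZW10 and RFC2 each lost their call in 8 of 12, without any 1 of the 6 WT libraries or of GLUP replicates 14 and 15 labelled TEAD4KO. MAD1L1 also lost it in 8, with replicate 16 in place of 15, and CCND1 in 9, those of ENSA and untreated replicate 3 labelled TEAD4KO. TYMS and CCND2 lost theirs in 5, without any 1 of the WT libraries with GLUP or of replicates 14 and 15 labelled TEAD4KO. The highest adjusted p in these fits was 0.181, for CCND1. These lists were drawn up with earlier results of these libraries known, and their counts are descriptions beside the background shares given above.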

How the data were processed

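Reads from HGC-27 RNA were processed on an online cloud platform, and the authors deposited FPKM values, with a column for each library and a row for each Ensembl gene. The submitters' processing notes name HISAT2, Cufflinks, RSEM and hg19 with no version, role or order. Depth is unknown, so precision was taken from the spread between replicates (n = 3 a group). FPKM keeps differences in fragment length and GC content between libraries. Total FPKM ran from 375361 to 384477 over the WT libraries and from 397321 to 423757 over those labelled TEAD4KO.

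The scale was log2(FPKM + 1), which understates changes of low genes, and 11225 rows averaging 1 FPKM or more were kept. All 12 libraries entered a 4-group model in limma 3.58.1 (R 4.3.3, eBayes with trend, no covariates). Tests were two-sided, with Benjamini-Hochberg adjustment over all rows and a threshold of 0.05. SEs and 95% intervals are those of limma. The model was tested on simulated data.

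The members, companion lists and tests were chosen with earlier results of these data known. Genes were named by rule: 21 members always, called members, the largest rise and fall in each comparison, and up to 3 called genes per direction in each companion list. Members whose groups did not overlap, and those called in an alternative, were named after their values were seen.

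Symbols, positions and lengths came from GENCODE 44 on GRCh37 (96.5% of rows), and promoters from RefSeq on GRCh38.p14. Replicate numbers come from the titles. Deviations from the group means correlated at 0.106, 0.152 and 0.336 between genotypes for replicates 14, 15 and 16, and at -0.0569, 0.203 and -0.0149 for 1, 2 and 3. The main fit paired no libraries, while the replicate block paired all those of the same number between genotypes. Alternatives were a pseudocount of 0.1, no filter, a mean of at least 5 FPKM, median-ratio scaling, quantile normalization, no trend, array weights, splines for GC and length (5 degrees of freedom), only the groups compared, the replicate block, and each library left out.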

Additional observations from a re-analysis of the deposited data

How the results depend on the processing

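Of 63 gene results recomputed under these alternatives, 54 kept their direction throughout. Apart from those of CCNA2, MKI67, BIRC5 and TEAD4, they were chosen as extreme, called or without overlap. A turn of sign was therefore less likely in them than in other genes. Counts of members called with GLUP (in WT, in TEAD4KO, over both, and as an interaction) were 0 under every alternative run. In untreated cells the count of the genotype difference was 0, and became 1 (MKI67, lower) with a mean of at least 5 FPKM, median-ratio scaling, quantile normalization and array weights. In that order, these fits called 8.59%, 4.04%, 5.37% and 6.18% of all rows. With GLUP the count of 1 became 0 with no filter, median-ratio scaling, no trend and only the groups compared, 2 (CDC25B and MKI67, both lower) with quantile normalization (7.21% of all rows called) and 6 with array weights (22.2% of all rows). Leaving out 1 library gave counts of 0 to 2 untreated and 0 to 6 with GLUP. Without untreated TEAD4KO replicate 1 the first was 2 (10.6% of all rows called). Without TEAD4KO with GLUP replicate 16 the first was 1 (MKI67, 8.63% of all rows) and the second 6 (17.4%). The second was 2 without untreated TEAD4KO replicate 2 (7.95% of all rows). It was 0 without any 1 of untreated WT 1, 2 or 3, WT with GLUP 14 or 16, and TEAD4KO with GLUP 14 or 15. Quantile normalization turned the members' medians to -0.049 and -0.045. The cause was not tested.

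With the replicate number as a block, 1 member (MKI67) was called in untreated cells and 2 (BIRC5 and UBE2C) with GLUP. Of all rows, 7.56% and 9.48% were called in these fits. In untreated cells the deviations of same-numbered libraries correlated at only -0.0569, 0.203 and -0.0149. The block together with that correction of GC and length gave 0 and 1, beside 2.63% and 4.22% of all rows. The block changed no other count of members called.

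Signs turned for MKI67 with GLUP in WT (-0.0050 with median-ratio scaling, -0.029 with GC and length correction), CCNA2 with GLUP in TEAD4KO (0.0042 with median-ratio scaling, 0.016 with quantile normalization) and, untreated, CDC20 (-0.050 with quantile normalization, -0.013 with the correction, also under the block) and AURKB (-0.011, also under the block). Leaving out 1 library, the log2 fold change of MKI67 ran from -0.021 to 0.029 with GLUP in WT, from -0.035 to 0.13 in TEAD4KO and from -0.013 to 0.070 over both. That of CCNA2 with GLUP in TEAD4KO ran from -0.10 to 0.065. The interaction ran from -0.013 to 0.15 for CCNA2, from -0.014 to 0.11 for BIRC5 and from -0.044 to 0.12 for MKI67. Unknown depth and 3 libraries a group limit what could be detected.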
